A study of Mus musculus with 18 samples.

Results

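Apigenin given in drinking water was compared with vehicle water in the brains of old mice, across all genes with enough signal to test. The members are 10 of the series' 18 libraries, 5 from old mice that drank apigenin and 5 from old mice that drank vehicle. All came from male C57BL/6N mice aged 27 months, an inbred laboratory strain, and each label names the post-mortem brain of a single mouse. Apigenin was dissolved at 0.5 mg/mL in water with 0.2% carboxymethylcellulose, a thickener that the vehicle mice also drank. How long the mice drank is not given in the sources used here. Young mice of 6 months, 4 on vehicle and 3 of 4 on apigenin, entered the same fit and the test of whether the difference depended on age. The other young apigenin library was left out because its column is displaced against the gene names. Of 24405 genes in the table, 15808 had a mean value of at least 10 over the 17 libraries used and were tested. Values are reads per gene from polyadenylated RNA, divided by a factor for each library so that libraries are comparable, and are called normalized reads. The p-values measure the spread between these samples.

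Apigenin is a plant flavone found in parsley, celery and chamomile. In cultured cells and rodents it is known as an inhibitor of the NAD-consuming enzyme CD38 and of casein kinase 2, as a damper of NF-kB signalling, as an inducer of antioxidant genes through NRF2, and as a ligand at the benzodiazepine site of GABA-A receptors. The old mouse brain is known for microglial and astrocyte activation, complement and antigen-presentation genes, and a type I interferon response, in which cytosolic nucleic acid sensors and interferons act through a shared signalling cascade on a common set of antiviral genes.

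Libraries were checked against markers before any comparison. Neuronal (Snap25), astrocyte (Aqp4), myelin (Mbp) and microglial (Tmem119) markers were present in all 17 libraries. Ddx3y, carried on the Y chromosome, was at 1393 to 2109 normalized reads and Xist at 0 to 9.53, as in male tissue. Cerebellar transcripts were nearly missing from old apigenin replicate 3: Gabra6, a GABA-A receptor subunit of granule cells, was at 1.03 normalized reads there and at 166 to 3131 in the other 16 libraries. Pcp2, a Purkinje cell gene, was at 2.07 against 342 to 1713, and Fat2, a cadherin of granule cells, at 10.3 against 295 to 5263. All 17 cerebellum genes were lowest of the 10 old libraries in that one, so its label as whole brain does not hold for the cerebellum. Hox genes, which mark hindbrain and spinal cord, were high in old apigenin replicates 1 and 4 and old vehicle replicate 2: Hoxb8 was at 102, 149 and 128 there and at 0 to 0.98 in the other 7. Hoxb5 was at 170, 283 and 278 in those 3 and at 0 to 18.4 in the rest. Meg3, a nuclear long noncoding RNA, was at 88309 in old apigenin replicate 5 and 106412 in old vehicle replicate 4, and at 12985 to 33788 in the other 8. In those same 2 libraries the mean log2 level of 52 ribosomal protein genes was lowest, 11.96 and 11.94 against 12.15 to 12.52. Rn45s, the ribosomal RNA precursor, took 3.36% of all reads in old apigenin replicate 2 and 0.15 to 0.418% in the other 9. Pituitary growth hormone (Gh) was at 50.5 and 151 in apigenin replicates 1 and 4 and at 25.3 and 40.3 in vehicle replicates 2 and 5, and at 0 in the other 6 old libraries. The liver gene Alb was at 776 in apigenin replicate 5 and 914 in vehicle replicate 5, and at 0.94 to 166 in the other 8. Results below are given with all 10 libraries, and for the main lists and genes that move, also without the 4 libraries that stand apart in cerebellum or Hox genes (apigenin 1, 3 and 4 and vehicle 2) or without the 2 high in nuclear RNA (apigenin 5 and vehicle 4). Without the 4 libraries the apigenin arm is apigenin 2 and 5 alone, against vehicle 1, 3, 4 and 5. Of those 2 mice, apigenin 2 was high in Rn45s and apigenin 5 in nuclear RNA. Values without the 4 libraries rest on them, and the part of brain region in such values was not tested. In bulk tissue, fewer cells of a type and less RNA per cell cannot be told apart.

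**Figure D1:**
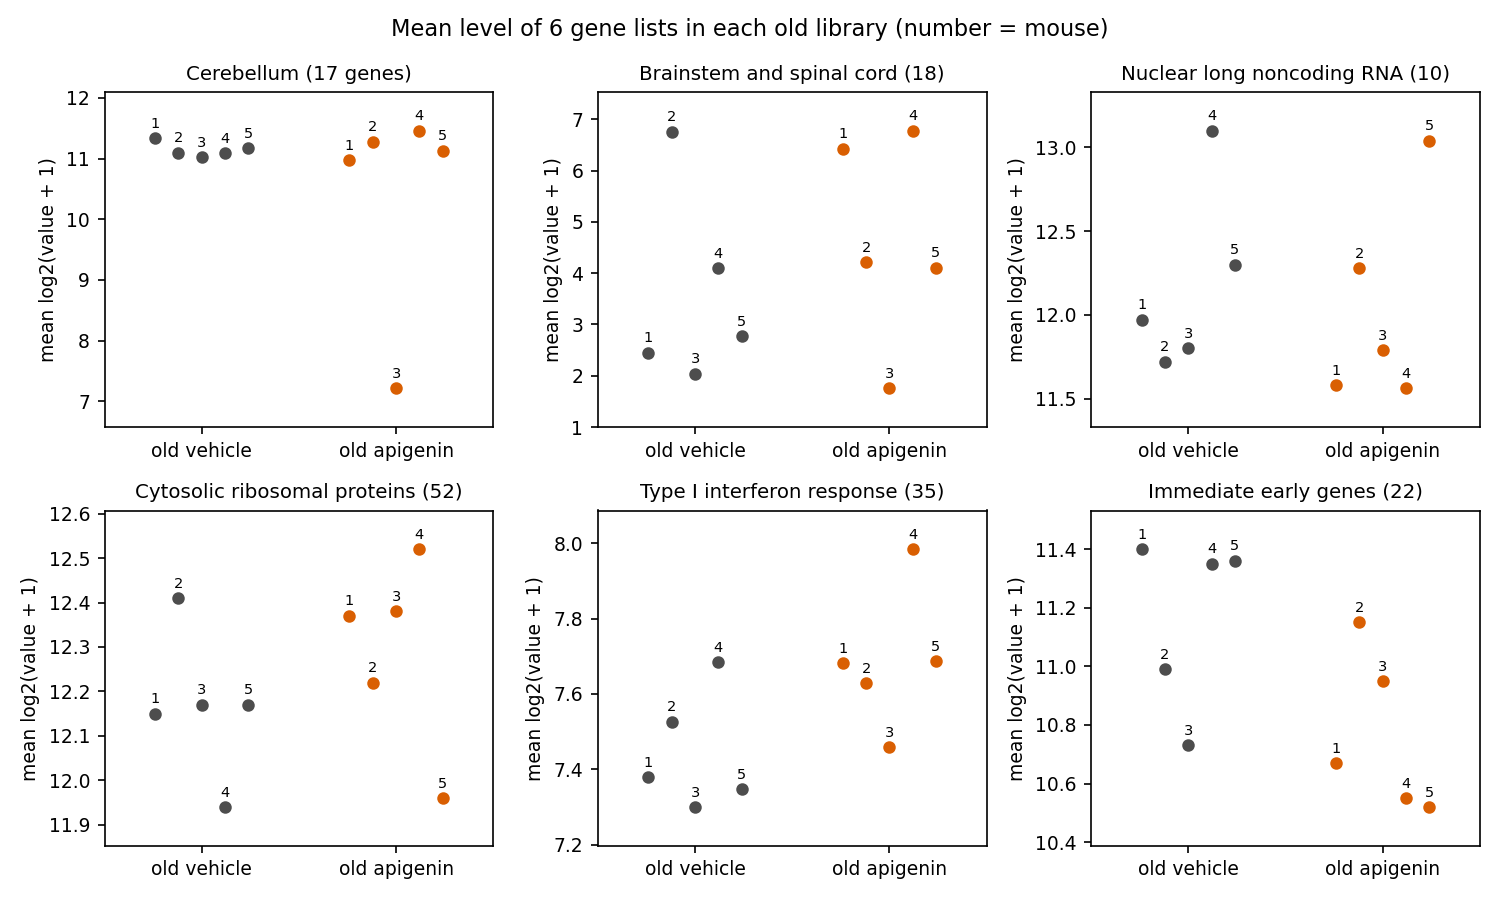
Mean log2(value + 1) of 6 gene lists in each old library, with 1 point per mouse, numbered by replicate, vehicle in grey and apigenin in orange. Apigenin 3 stands at 7.21 on the cerebellum list where the others lie between 10.97 and 11.46, and vehicle 2 with apigenin 1 and 4 lie at 6.43 to 6.78 on the brainstem and cord list.

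No gene passed the threshold between old apigenin and old vehicle brains. In limma with Benjamini-Hochberg adjustment over 15808 genes, 0 genes (0%) had an adjusted p under 0.05, and the smallest adjusted p was 0.986. At an unadjusted p under 0.05 there were 381 genes (2.41%), of which 221 (1.4%) were higher and 160 (1.01%) lower with apigenin. If no gene differed, about 1 in 20 genes would fall under 0.05, and 2.41% with all 10 libraries is less than that. Genes that move together make such a share vary, so it cannot be compared closely with 1 in 20. By edgeR's quasi-likelihood test on the recovered reads 0 genes passed, with 391 at an unadjusted p under 0.05, and by DESeq2 0 passed, with 403. The 5 apigenin values and the 5 vehicle values did not overlap for 57 genes (0.361%), 38 (0.24%) higher and 19 (0.12%) lower. The log2 difference, apigenin minus vehicle on the log2(value + 1) scale, was above 0 for 8336 genes (52.7%), with a median of 0.0068. By edgeR 7783 genes were above 0 with a median of -0.0016, and by DESeq2 7655 with a median of -0.0039. Which side holds more genes thus depends on the scaling. When 1 library was left out, 0 genes passed in each of the 10 refits. The count at an unadjusted p under 0.05 was then 251, 234, 240 and 794 without apigenin 1, apigenin 4, vehicle 1 and vehicle 2, and 1675 without apigenin 5. Of 15808 genes, 794 is about 1 in 20 and 1675 is more than that. On which side of 1 in 20 the count lies thus depends on single libraries.

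The precision of these differences was moderate. The median SE was 0.1 on the log2 scale, and the 95% interval lay within 1.5-fold in either direction for 12813 genes (81.1%) and within 2-fold for 93.8%. Point estimates beyond 1.5-fold were seen for 243 genes and beyond 2-fold for 44. Libraries varied more in the apigenin arm: the median SD of log2 values was 0.179 among apigenin libraries and 0.153 among vehicle libraries. The SD was larger in the apigenin arm for 58.8% of genes. That arm holds most of the libraries apart in brain regions and the library high in Rn45s. The part of these libraries in the larger SD was not tested. With limma's array weights, which weigh each library by how closely it follows its group, 988 genes (6.25%) passed, 657 (4.16%) higher and 331 (2.09%) lower. Apigenin 1 then had a weight of 5.62 and vehicle 1 of 3.57, where the other 8 old libraries had 0.29 to 1.87. Apigenin 1 is among the libraries apart in Hox genes and vehicle 1 is not. Their mean log2 levels on the brainstem and cord list were 6.43 and 2.45. The part of this difference in the 988 calls was not tested. Among the 988 were 15 of 35 interferon genes, 12 of 22 immediate early genes, 28 of 52 ribosomal protein genes, 13 of 41 oxidative phosphorylation genes and 15 of 18 genes of the brainstem and cord list. NRF2 targets and antioxidant enzymes had 9 of 25 among them. Of the 988 genes, 240 had an unadjusted p under 0.05 with equal weights.

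**Figure D2:**
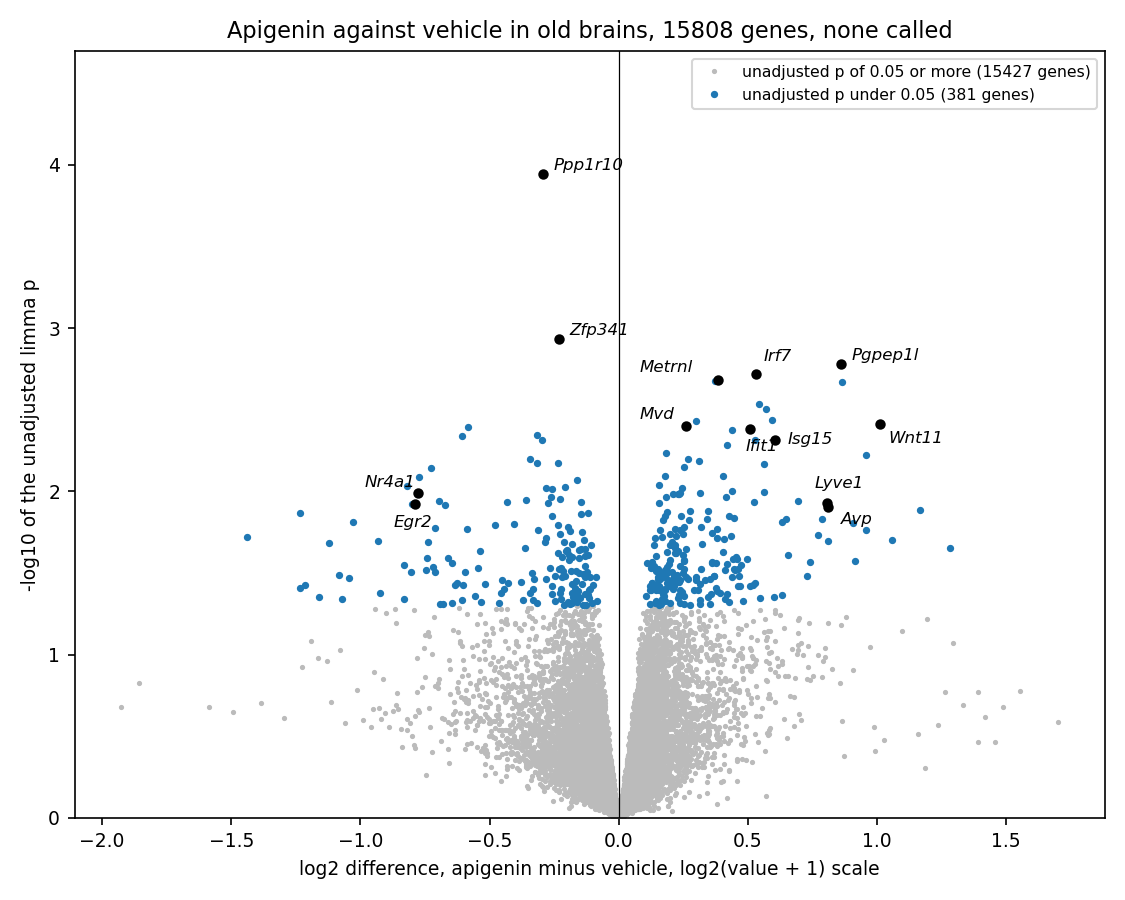
Each of 15808 tested genes by its log2 difference (apigenin minus vehicle, old brains) and the -log10 of its unadjusted limma p, with genes at p under 0.05 in blue and 13 named genes in black. Ppp1r10 has the smallest p, 0.000114, and none passed after adjustment.

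The lowest p belonged to Ppp1r10 (chromosome 17, 35916434 to 35932283, GRCm38), whose product anchors protein phosphatase 1 in the nucleus. It was at 1569, 1483, 1554, 1412 and 1723 normalized reads in apigenin replicates 1 to 5 and at 2007, 1840, 1789, 1966 and 1877 in vehicle replicates 1 to 5. Every apigenin mouse was below every vehicle mouse. The log2 difference was -0.29 ± 0.06 (SE; 95% interval -0.42 to -0.17), with an unadjusted p of 0.000114 and an adjusted p of 0.986 in limma. DESeq2 gave it an adjusted p of 0.0593. Leaving out any 1 library kept the difference between -0.33 and -0.26.

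Zfp341 (chromosome 2, 154613297 to 154646821), a zinc finger transcription factor, also showed no overlap. Its values were 365, 366, 361, 364 and 405 on apigenin and 457, 414, 435, 439 and 437 on vehicle. The log2 difference was -0.23 ± 0.06, with an unadjusted p of 0.00117 in limma. It overlaps 4930519P11Rik on the opposite strand, and whether counting used strand is not given, so reads of the 2 genes may be mixed. Nlrx1, a mitochondrial protein of the NOD-like receptor family, was at 235 to 266 on apigenin and 273 to 356 on vehicle, without overlap (-0.32 ± 0.10). Slc29a2, a nucleoside transporter, was at 396 to 460 against 465 to 581 (-0.23 ± 0.08), also without overlap.

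Among the other lower genes of the 10 with the smallest p were Tbata, Pbld2, the clustered protocadherin Pcdhb11, Smad6 and Melk. Smad6, an inhibitor of BMP signalling, averaged 108 ± 9.09 normalized reads (SD, n = 5) on apigenin against 136 ± 14.0. Melk, a kinase of dividing cells, was low in every library, at 14.2 to 31.7 against 24.3 to 45.3, and its difference of -0.73 was -0.22 without the 4 libraries apart in brain regions. Pbld2 (-0.61 ± 0.19), Tbata (-0.58 ± 0.18), a gene of thymus and testis, and Spata33 (-0.40 ± 0.15) were -0.53, -0.37 and -0.63 without those libraries, and with all 10 they had the largest lower differences among the 19 genes without overlap. Pcdhb11 (-0.30 ± 0.09) was at 190 to 214 against 222 to 281, without overlap, and its reads can be shared with near-identical neighbours of its cluster.

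Among higher genes the smallest p was that of Pgpep1l (chromosome 7, 68236610 to 68264233), a peptidase-like gene of low level. It was at 38.8, 29.6, 35.1, 29.3 and 31.5 normalized reads on apigenin and at 17.6, 17.8, 16.9, 22.6 and 13.8 on vehicle. The groups did not overlap, and the log2 difference was 0.86 ± 0.23, with an unadjusted p of 0.00167 in limma. Metrnl, which encodes a secreted meteorin-like factor, was at 227 to 272 on apigenin against 164 to 210 on vehicle (0.39 ± 0.11, no overlap). S1pr2, a receptor for the lipid sphingosine 1-phosphate, was at 100 to 114 against 72.5 to 91.4 (0.37 ± 0.10, no overlap). The largest difference among the 10 was that of Wnt11, a secreted Wnt ligand, at 20.7 to 35 against 7.40 to 31.8, where vehicle 2 (31.8) overlapped the apigenin mice. Its log2 difference was 1.01 ± 0.30. Osr1 (0.59 ± 0.18), a zinc finger gene of meningeal and other fibroblasts, Fam212a (0.57 ± 0.17) and Med21 (0.30 ± 0.09), a Mediator subunit, overlapped between arms, and without the 4 libraries apart in brain regions their differences were 0.35, 0.37 and 0.13. Slc38a8, an amino acid transporter, had no overlap at a very low level, 8.86 to 19.6 against 3.74 to 8.46 (0.91 ± 0.34, or 0.35 without the 4 libraries). The largest difference without overlap, 1.17 ± 0.42, was that of E130112N10Rik, a gene model at 13.4 to 29.5 against 2.12 to 13.1, and it was 1.77 without the 4 libraries.

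Interferon-response genes made up 2 of the 10 higher genes with the smallest p, Irf7 and Ifit1. Irf7 (chromosome 7, 141262706 to 141266481) encodes the transcription factor that amplifies interferon production. It was at 271, 215, 267, 314 and 234 normalized reads in apigenin replicates 1 to 5 and at 156, 176, 188, 226 and 154 in vehicle replicates 1 to 5. Vehicle 4 exceeded apigenin 2, and the other 4 vehicle mice lay below all apigenin mice. The log2 difference was 0.53 ± 0.15 (95% interval 0.22 to 0.83), with an unadjusted p of 0.0019 and an adjusted p of 0.986 in limma. Without the 4 libraries apart in brain regions it was 0.32. Irf7 overlaps Phrf1 on the opposite strand.

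Ifit1 (chromosome 19, 34640871 to 34650009), whose product binds viral RNA, was at 344, 369, 277, 446 and 260 on apigenin and at 211, 287, 223, 244 and 211 on vehicle. Only vehicle 2 reached the range of the apigenin mice. The log2 difference was 0.51 ± 0.15 and was 0.48 without the 4 libraries. Isg15 (chromosome 4, 156199424 to 156200818), a ubiquitin-like protein attached to other proteins on interferon signalling, was at 120, 97.1, 108, 150 and 83.6 on apigenin and at 74.5, 64.6, 71.9, 86.9 and 62.9 on vehicle. Vehicle 4 overlapped apigenin 5 alone, and the log2 difference was 0.61 ± 0.19, or 0.29 without the 4 libraries.

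Ifit1 and Isg15 are shown with the 250 bases before their RefSeq start (GRCm38.p6), since their promoters hold the core of the interferon-stimulated response element, which IRF and STAT complexes bind. The pattern searched is GAAA repeated after a gap of any 2 bases, read as TTTC where the match lies on the opposite strand, and the capitals mark its matches. Ifit1 holds 2 matches, and the 3 matches of Isg15 overlap each other.
Ifit1, chr19:34640639-34640888, plus strand: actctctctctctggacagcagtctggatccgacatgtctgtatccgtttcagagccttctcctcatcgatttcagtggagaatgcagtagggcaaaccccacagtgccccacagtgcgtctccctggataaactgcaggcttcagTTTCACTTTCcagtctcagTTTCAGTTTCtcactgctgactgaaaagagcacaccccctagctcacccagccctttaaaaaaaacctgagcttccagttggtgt
Isg15, chr4:156200819-156201068, minus strand: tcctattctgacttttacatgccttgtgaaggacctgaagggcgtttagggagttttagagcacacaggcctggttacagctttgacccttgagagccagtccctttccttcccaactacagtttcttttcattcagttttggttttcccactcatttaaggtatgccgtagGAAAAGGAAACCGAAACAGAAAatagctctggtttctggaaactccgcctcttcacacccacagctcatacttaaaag
Of 32851 RefSeq windows of this length 2.98% held the pattern on either strand, and of 15200 windows of tested genes 2.56%. The table had 27 windows for 23 of the 35 tested interferon genes, and 9 of these windows (33.3%) held it. The Irf7 window held 0 matches, which says only that these letters are not in it.

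Of 36 interferon-response genes listed, 35 were tested and 33 had a log2 difference above 0, beside 52.7% of all genes. At an unadjusted p under 0.05, 7 were higher and 0 lower, beside 1.4% and 1.01% of all genes, and 0 passed after adjustment in limma. The count of 7 was 10 without apigenin 3 and 2 without the 4 libraries apart in brain regions. Over all 15808 genes the higher count was 262 and 231 in those refits. The median log2 difference of the list was 0.24, with single genes from -0.11 to 0.61, beside 0.0068 over all genes. Leaving out 1 library in turn kept the median between 0.14 (without apigenin 4) and 0.29, and it was 0.23 without the 4 libraries apart in brain regions. Apigenin 4 had the highest value among apigenin mice for 21 of the 35 genes. The list's mean log2 level was 7.46 to 7.98 in apigenin mice and 7.30 to 7.68 in vehicle mice, so the arms overlapped, with vehicle 4 at the top of its arm.

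Genes of the list outside the naming rule are named here after their values were seen. Ifi27, a mitochondrial interferon-induced protein, was at 945 to 1361 on apigenin and 816 to 916 on vehicle, without overlap (0.31 ± 0.10, or 0.16 without the 4 libraries). Rtp4, a receptor chaperone induced by interferon, was at 120 to 217 against 89.9 to 139 (0.56 ± 0.18), and Oasl2, of the oligoadenylate synthetase family, at 408 to 672 against 287 to 531 (0.42 ± 0.17). Upstream of these, Ifih1, the sensor MDA5, had a difference of 0.13 ± 0.11 (95% interval -0.11 to 0.37).

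**Figure D3:**
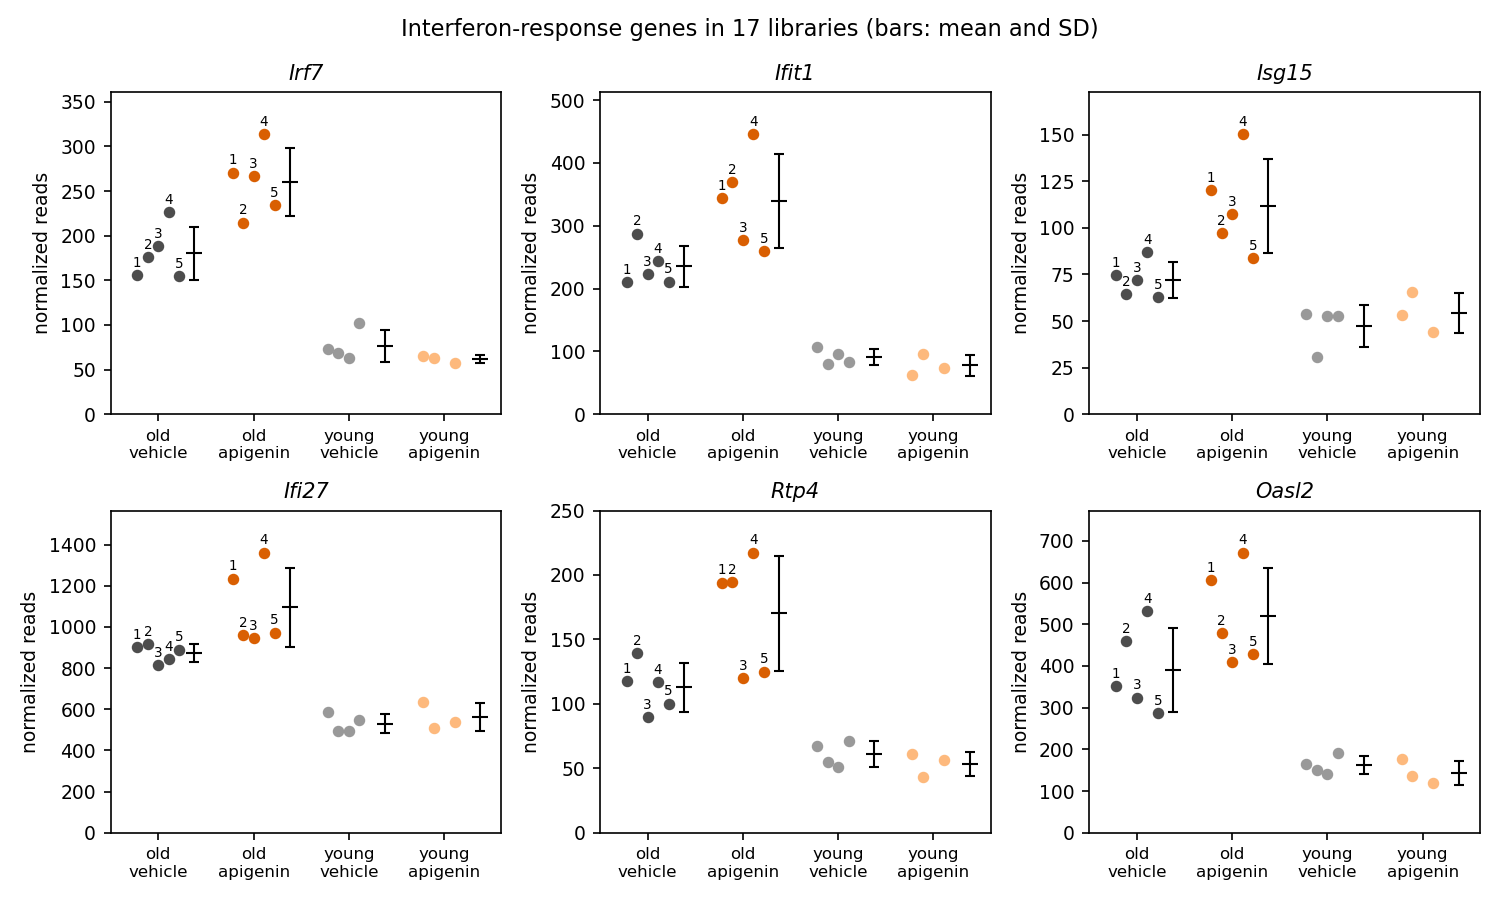
Normalized reads of 6 interferon-response genes in 17 libraries, with 1 point per mouse, numbered by replicate in the old groups, and black bars for the mean and SD of each group. Isg15 lies at 83.6 to 150 in old apigenin mice and 62.9 to 86.9 in old vehicle mice, and young mice lie at 30.6 to 65.7.

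In young mice 19 of the 35 genes were above 0, with a median of 0.02. Irf7 was at 57.1 to 65.5 in young apigenin mice and 62.9 to 102 in young vehicle mice. The interaction, the apigenin difference in old minus that in young mice, was 0.81 ± 0.23 for Irf7 and 0.75 ± 0.24 for Ifit1. Neither passed after adjustment over all genes in limma (adjusted p = 1). The list's median interaction was 0.16, beside -0.03 over all genes.

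Immediate early genes, transcription factors and effectors that neurons switch on within minutes of activity, lay on the lower side. Of 22 genes listed and tested, 18 had a difference below 0, beside 47.3% of all genes, and at an unadjusted p under 0.05 there were 10 lower and 0 higher, beside 1.01% and 1.4% of all genes. The count of 10 was 5 without apigenin 4, 4 without apigenin 5, 6 without vehicle 4, 6 without the 4 libraries apart in brain regions and 1 without the 2 libraries high in nuclear RNA. Over all 15808 genes the lower count was 160 with all 10 libraries and 116, 903, 114, 343 and 478 in those refits, in the same order. The list's median log2 difference was -0.26, and 0 of its genes passed after adjustment in limma. Nr4a1 (chromosome 15, 101254269 to 101274795), an orphan nuclear receptor, was at 2677, 4967, 3186, 2169 and 2472 on apigenin and at 5965, 4804, 2546, 7420 and 6186 on vehicle. Vehicle 3 was as low as the apigenin mice, and apigenin 2 was as high as the lower vehicle mice. The log2 difference was -0.78 ± 0.27 (95% interval -1.34 to -0.21), with an unadjusted p of 0.0102 in limma.

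Arc, an effector of synaptic plasticity, was at 5295, 8255, 6917, 3870 and 4979 on apigenin and at 11385, 7620, 4980, 11263 and 12312 on vehicle (-0.67 ± 0.24). The same pair of mice crossed the arms. Egr2, a zinc finger transcription factor, was at 242 to 484 against 340 to 746 (-0.79 ± 0.28), and Ier2 at 254 to 542 against 309 to 756 (-0.80 ± 0.29). Fos and Junb, partners in the AP-1 complex named here after their values were seen, had differences of -0.69 ± 0.33 (-0.38 without the 4 libraries) and -0.66 ± 0.27. Vehicle 3 had the lowest value among vehicle mice for 11 of the 22 genes, and apigenin 2 the highest among apigenin mice for 13. The list's mean log2 level was 10.52 to 11.15 on apigenin and 10.73 to 11.40 on vehicle.

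The median of these genes was -0.39 to -0.21 when 1 library was left out in turn, -0.38 without the 4 libraries apart in brain regions and -0.17 without the 2 libraries high in nuclear RNA. In young mice 20 of 22 genes were below 0, with a median of -0.50, and the median interaction was 0.07. Arc was at 5802 to 10759 in young apigenin mice and 12822 to 17146 in young vehicle mice. The labels used here name neither the order in which mice were killed nor the time from death to freezing, and the part of either in the result was not tested.

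Nr4a1 is shown with the 250 bases before a RefSeq start because the cyclic AMP response element, bound by CREB, is known at promoters of this class. The capitals mark its core TGACG, or CGTCA on the opposite strand, of which this window has 4.
Nr4a1, chr15:101266596-101266845, plus strand: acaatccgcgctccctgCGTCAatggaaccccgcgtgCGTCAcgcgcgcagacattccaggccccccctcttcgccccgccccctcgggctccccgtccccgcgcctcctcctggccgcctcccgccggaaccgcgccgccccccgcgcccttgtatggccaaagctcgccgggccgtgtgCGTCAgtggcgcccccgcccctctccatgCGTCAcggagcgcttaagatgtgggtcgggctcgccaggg
Of all 32851 windows 17.8% held the core, of 15200 windows of tested genes 24.7%, and of 27 windows for 16 of the 22 immediate early genes 15 (55.6%) held it. Creb1 itself was at 1944 to 2320 on apigenin and 1896 to 2346 on vehicle (-0.03 ± 0.07).

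**Figure D4:**
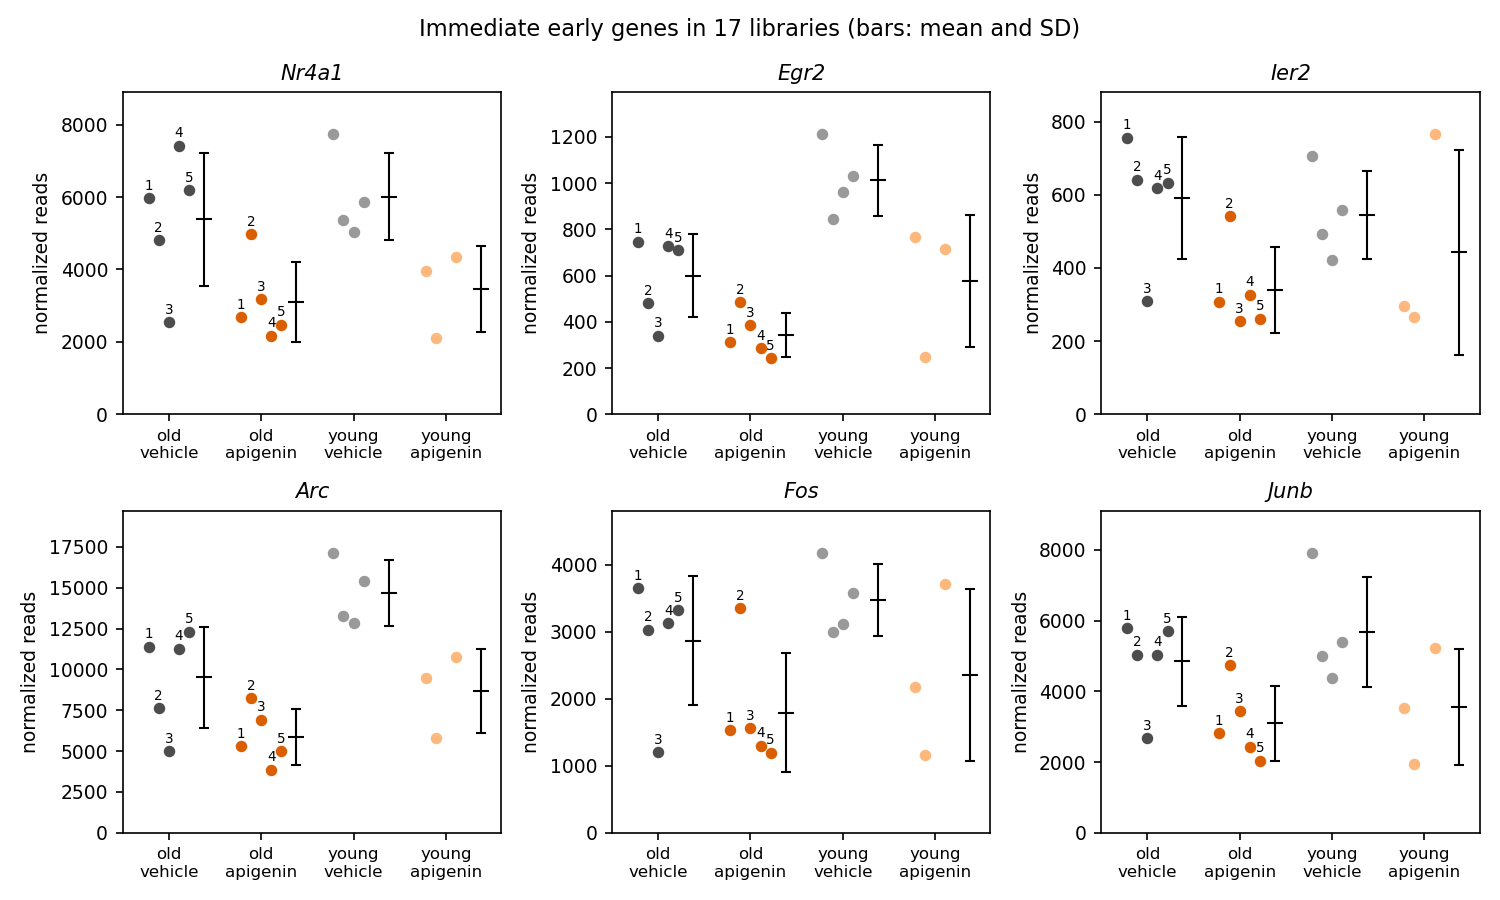
Normalized reads of 6 immediate early genes in 17 libraries, drawn as in the plot of interferon genes. In each panel vehicle 3 is the lowest old vehicle mouse and apigenin 2 the highest old apigenin mouse.

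Genes known to be active in the inflamed old brain did not pass the test in either direction. Complement genes had 12 of 17 tested above 0 and a median of 0.12, which was -0.03 without the 4 libraries apart in brain regions. C4b, an early complement component of old glia, was at 4901 to 5938 on apigenin and 4153 to 7360 on vehicle (0.01 ± 0.12, 95% interval -0.25 to 0.27). C3, the central component, was at 223 to 484 against 204 to 333 (0.27 ± 0.22), and C1qa, a microglial component, at 2376 to 4289 against 2636 to 3092 (0.17 ± 0.12, or -0.10 without the 4 libraries). Of the 27 genes of activated microglia 22 were above 0, with 0 at an unadjusted p under 0.05 and a median of 0.07, or -0.02 without the 4 libraries. Homeostatic microglia genes had the same median, 0.07, with 11 of 14 above 0, or -0.17 with 1 of 14 above 0 without the 4 libraries.

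Single microglial genes overlapped between arms. Trem2, a lipid-sensing receptor, was at 399 to 616 on apigenin and 450 to 576 on vehicle (0.06 ± 0.12, or -0.17 without the 4 libraries). Clec7a was at 109 to 148 against 81.4 to 152 (0.19 ± 0.23), Cst7 at 47.5 to 93.6 against 43.1 to 92.9 (0.20 ± 0.42) and Itgax at 52.4 to 87.9 against 61.3 to 137 (-0.11 ± 0.34). Cd68, a lysosomal protein of phagocytes, was at 456 to 578 against 468 to 668 (-0.06 ± 0.10, or 0.06 with array weights). For antigen presentation, 11 of 13 class I genes were above 0 with a median of 0.11, which was 0.04 without apigenin 4. B2m, the class I light chain, was at 4223 to 6583 against 4358 to 5000 (0.14 ± 0.09, or -0.03 without the 4 libraries), and H2-K1, a class I heavy chain with near-identical relatives, at 1631 to 2732 against 1555 to 1781 (0.20 ± 0.11, or 0.04 without them). In both genes apigenin 4 was the highest of the 10 mice. The 7 class II genes had a median of 0.15, which was -0.03 without apigenin 4 and -0.27 without the 4 libraries.

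NF-kB and innate sensing genes were split, 18 of 32 above 0 with a median of 0.02. Tlr4, the receptor for bacterial lipopolysaccharide, stood out at 71.8, 63.4, 56.9, 58.6 and 79.7 on apigenin and 42.2, 50.5, 51.8, 48.8 and 46.2 on vehicle. Its groups did not overlap (0.45 ± 0.17). Nfkb1 (0.06 ± 0.10) and Rela (-0.08 ± 0.07), the NF-kB subunits, did not reach an unadjusted p under 0.05 in limma. Of the 13 cytokine and chemokine genes tested, 8 were above 0 with a median of 0.05, which was -0.02 with 6 of 13 above 0 without the 4 libraries. Il33, an alarmin of oligodendrocytes and astrocytes, was at 3169 to 3795 against 3037 to 3444 (0.12 ± 0.07). Reactive astrocyte genes had 21 of 25 above 0 and a median of 0.10, which was 0.05 without vehicle 3, 0.05 without apigenin 4, 0.18 without apigenin 2, and 0.05 with 15 of 25 above 0 without the 4 libraries. Gfap, the astrocyte filament protein, was at 15158 to 23927 against 13639 to 19221 (0.22 ± 0.14), Serpina3n at 1346 to 1556 against 1173 to 1892 (0.00 ± 0.11) and Vim at 2209 to 4494 against 2877 to 3185 (0.01 ± 0.15). Lcn2, a secreted iron-binding protein, was at 365 in apigenin 4 and 322 in vehicle 2, both among the mice with high Hox genes, and at 31.4 to 137 in the other 8.

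**Figure D5:**
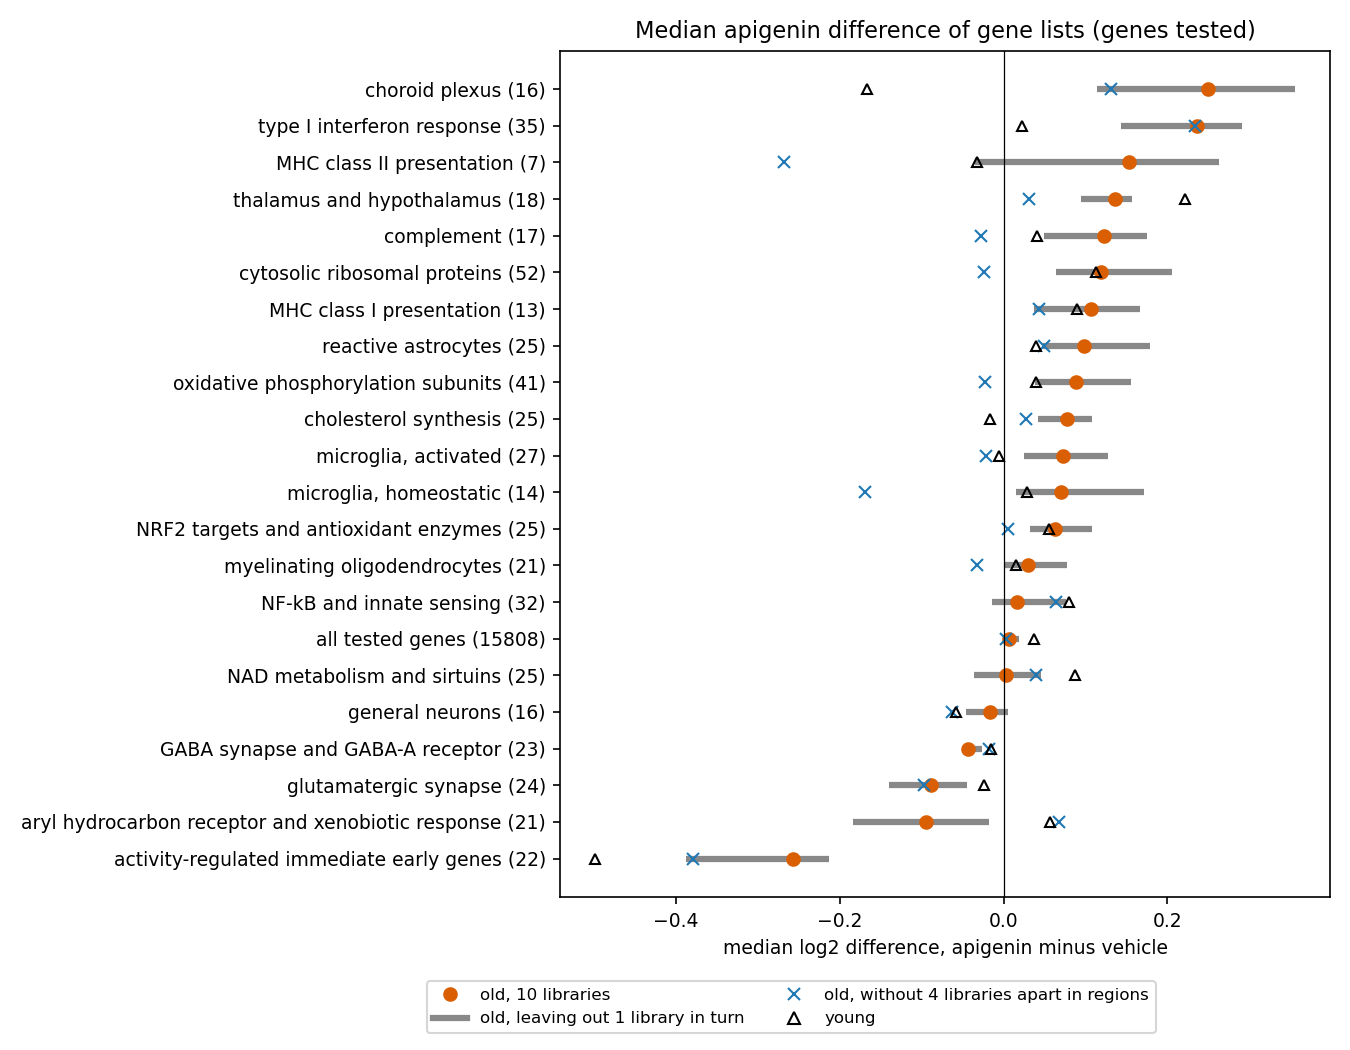
Median log2 difference (apigenin minus vehicle) of 21 gene lists and of all tested genes, as orange points for the 10 old libraries, with grey bars over the range when each library is left out, blue crosses without the 4 libraries apart in brain regions and open triangles for young mice. The interferon list is at 0.24 and the immediate early genes at -0.26, where all tested genes are at 0.0068.

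Gene lists tied to the known actions of apigenin had medians between -0.09 and 0.06, with no direction shared by all of them. NAD metabolism and sirtuin genes had 14 of 25 above 0 and a median of 0.00. Cd38, the NAD hydrolase, was at 158 to 376 on apigenin and 216 to 301 on vehicle (0.07 ± 0.18, 95% interval -0.31 to 0.45). Nampt, which recycles nicotinamide into NAD, was at 1962 to 2314 against 1946 to 2134 (0.09 ± 0.06). The deacetylase Sirt1 was at 401 to 590 against 443 to 681 (-0.12 ± 0.11, or 0.09 without the 4 libraries apart in brain regions), and mitochondrial Sirt3 at 1418 to 1620 against 1333 to 1441 (0.11 ± 0.05, or 0.05 without them).

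NRF2 targets and antioxidant enzymes had 22 of 25 above 0, a median of 0.06 and 0 at an unadjusted p under 0.05. Without the 4 libraries apart in brain regions 13 of 25 were above 0 and the median was 0.01. Without apigenin 5, 7 genes were higher at an unadjusted p under 0.05, beside 772 of all 15808 genes in that refit. Nfe2l2, which encodes NRF2, was at 732 to 1060 on apigenin and 733 to 811 on vehicle (0.13 ± 0.08), and Hmox1, haem oxygenase, at 200 to 264 against 176 to 256 (0.16 ± 0.11). Nqo1, a quinone reductase and a standard NRF2 target, was at 190 to 316 against 207 to 361 (-0.03 ± 0.16). Gpx1, a glutathione peroxidase, was at 1869 to 2582 against 1819 to 2276 (0.16 ± 0.08, or 0.03 without the 4 libraries).

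Receptor and kinase targets showed small differences. The 23 genes of the GABA synapse and GABA-A receptor had a median of -0.04 with 5 above 0. Gabra2, an alpha subunit that forms part of the benzodiazepine site, differed by -0.08 ± 0.13 and was at 500 in vehicle 2 where the other 4 vehicle mice were at 814 to 921. Gabrd, the delta subunit of receptors outside synapses, was at 1969, 2150, 2143, 2190 and 2339 on apigenin and 2566, 2370, 2325, 2500 and 2464 on vehicle. Only apigenin 5 and vehicle 3 overlapped (-0.18 ± 0.07). Csnk2a1, the catalytic subunit of casein kinase 2, was at 3269 to 3471 against 3152 to 3533 (0.01 ± 0.04, 95% interval -0.08 to 0.10). Aryl hydrocarbon receptor and xenobiotic genes, which flavones can engage, had 7 of 21 above 0 and a median of -0.09, which was 0.07 without the 4 libraries. Ahr was at 192 to 316 against 220 to 321 (-0.12 ± 0.14, or 0.14 without them), and its target Cyp1b1 at 183 to 391 against 148 to 308 (0.22 ± 0.21). Esr1, oestrogen receptor alpha, was at 135 to 192 against 125 to 156 (0.24 ± 0.11), or 0.03 without the 4 libraries.

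General neuron and glutamatergic synapse genes lay mostly below 0 by small amounts. General neuron markers had 5 of 16 above 0 and a median of -0.02, with Snap25 at -0.01 ± 0.05 and the synaptic vesicle protein Syn1 at -0.11 ± 0.07. Glutamatergic synapse genes had 3 of 24 above 0 and a median of -0.09, between -0.14 and -0.04 when 1 library was left out. Nptx1, a pentraxin that gathers AMPA receptors, was at 15129 to 17575 on apigenin and 16433 to 18877 on vehicle (-0.14 ± 0.05, or -0.04 without the 4 libraries apart in brain regions). The neurotrophin Bdnf (0.11 ± 0.13) and its receptor Ntrk2 (-0.03 ± 0.04) did not reach an unadjusted p under 0.05 in limma. Neither did App (-0.06 ± 0.04), the amyloid precursor, or Apoe (0.07 ± 0.09). Without the 4 libraries Bdnf was at -0.09 and Apoe at -0.07. Sox11, a transcription factor of young neurons, was at 660 to 832 against 557 to 694 (0.20 ± 0.08), while Dcx, which marks migrating young neurons, was at 449 to 814 against 477 to 1112 (-0.17 ± 0.27). Myelin genes had a median of 0.03, with Mbp at 0.10 ± 0.10 and Opalin at -0.03 ± 0.10. Mbp changed sign under quantile normalization.

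Some lists of abundant genes lay almost wholly on the higher side by small amounts. Ribosomal protein genes had 51 of 52 above 0 with a median of 0.12 and 0 at an unadjusted p under 0.05, and nuclear-encoded oxidative phosphorylation subunits had 40 of 41 above 0 with a median of 0.09. Rps12 was at 4401 to 6556 on apigenin and 4180 to 5247 on vehicle (0.19 ± 0.09), and Cox6c at 4314 to 5805 against 4171 to 4834 (0.20 ± 0.08), and without the 4 libraries apart in brain regions they differed by 0.01 and 0.03. Without those libraries the list medians were -0.02 and -0.02, with 15 of 52 and 14 of 41 above 0. Without apigenin 5 alone the medians were 0.21 and 0.16, with 43 of 52 and 16 of 41 higher at an unadjusted p under 0.05, and without the 2 libraries high in nuclear RNA these counts were 17 and 5. Without vehicle 4 the medians were 0.06 and 0.04, and without apigenin 4 they were 0.07 and 0.04. The ribosomal protein mean was 12.37, 12.38 and 12.52 in apigenin 1, 3 and 4 and 12.41 in vehicle 2, which are those 4 libraries, and 11.94 to 12.22 in the other 6. The part of brain region or RNA quality in this was not tested.

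Cholesterol synthesis genes had 22 of 25 above 0, a median of 0.08, and 2 higher at an unadjusted p under 0.05, beside 52.7% of all genes above 0 and 1.4% higher. Mvd (chromosome 8, 122433601 to 122443422), which makes isopentenyl diphosphate from mevalonate diphosphate, was at 928, 948, 995, 965 and 839 on apigenin and 802, 754, 783, 772 and 788 on vehicle. The groups did not overlap (0.26 ± 0.08). Mvd overlaps the model Gm20388 on the opposite strand. Hsd17b7 was at 870 to 963 against 717 to 909 (0.17 ± 0.08), and squalene epoxidase, Sqle, at 2462 to 2954 against 2240 to 2638 (0.13 ± 0.06, or 0.04 without the 4 libraries). The list's median was 0.04 without apigenin 4 and 0.03 without the 4 libraries, and in young mice 7 of 25 were above 0 with a median of -0.02.

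Among genes of deep and border structures, several had higher values with apigenin in some mice. Of 18 thalamus and hypothalamus genes 14 were above 0 with a median of 0.14, which was 0.03 without the 4 libraries apart in brain regions. Avp, the hypothalamic peptide vasopressin, was at 2256, 1071, 1249, 1590 and 705 on apigenin and 843, 823, 991, 506 and 582 on vehicle. Apigenin 5 overlapped the vehicle mice, and the log2 difference was 0.81 ± 0.29, or 0.30 without the 4 libraries apart in brain regions. Oxt, oxytocin, was at 257 to 510 against 211 to 334 (0.46 ± 0.20, or 0.21 without them), and Gbx2, a thalamic transcription factor, at 117 to 149 against 82.4 to 110 without overlap (0.41 ± 0.18). Of 17 monoamine and acetylcholine neuron genes 13 were above 0, with a median of 0.24, which was 0.11 without vehicle 5, 0.38 without vehicle 2 and 0.13 without the 4 libraries. Slc6a2, the noradrenaline transporter of the locus coeruleus, was at 50.7 to 180 against 28.6 to 94.1 (0.73 ± 0.31). Slc6a4 and Tph2 of serotonin neurons were lowest of all mice in vehicle 5, at 33.4 and 55.0, where the other 9 were at 123 to 260 and 204 to 560. Choroid plexus genes had 15 of 16 above 0 and a median of 0.25, which was 0.11 without apigenin 4, 0.36 without apigenin 3 and 0.13 without the 4 libraries. In young mice their median was -0.17, with 0 of 16 above 0. The transport protein Ttr was at 27478 to 58989 against 24413 to 38979 (0.34 ± 0.26). Of 8 border macrophage and monocyte genes 5 were above 0 and 3 below, with a median of 0.11, which was 0.24 without the 4 libraries and 0.05 without the 2 high in nuclear RNA. Lyve1, a marker of border macrophages, was at 21.5 to 46.3 against 14.8 to 23.4 (0.80 ± 0.29), and Pf4 at 18.4 to 33.1 against 11.8 to 17.8 without overlap (0.57 ± 0.32).

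Whether apigenin acted differently in old and young mice was asked with the interaction term. In limma 0 genes (0%) passed after adjustment, and 196 (1.24%) had an unadjusted p under 0.05, also less than 1 in 20. The 5 higher genes with the smallest p were the chemokine Cxcl10, Irf7, Coa7, Gimap6 and Tgfb1, and the 5 lower included Pbld2, Gt(ROSA)26Sor, Nkiras2 and Sepsecs. Cxcl10, an interferon-induced attractant of T cells, was at 41.7, 53.2, 32.0, 72.8 and 29.5 in old apigenin mice and 31.4, 28.1, 44.4, 26.2 and 23.6 in old vehicle mice. In young mice it was at 1.73 to 6.55 on apigenin and 8.17 to 17.1 on vehicle. The interaction was 1.96 ± 0.49, from 0.52 in old and -1.44 in young mice. Pbld2 had the opposite form, with an interaction of -1.07 ± 0.29, from -0.61 in old and 0.47 in young mice. The young arms hold 3 and 4 mice, which limits the precision of these terms.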

How the data were processed

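A Zymo kit gave the RNA, oligo-dT beads its polyadenylated part and TruSeq kits the libraries, per the labels. STAR, DESeq2 and build mm10 were used, per the submitters' processing notes, with no versions given. No source used here names the counter, annotation or strand setting. The deposited table holds the authors' normalized signal per gene, read counts divided by a library factor. Values of an old library summed to 3.3551e+07 to 3.3554e+07, so the factor brought libraries to about the same total. From the values, 100% were whole multiples of 1 read within 0.01 of a read, so counts were recovered: 28171596 to 35859829 reads per old library. Of 24411 rows the last 6 were left out as damaged (4 blank cells). Young apigenin replicate 3 (median correlation 0.806 with the others) was left out.

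Genes with a mean of at least 10 over 17 libraries were tested on log2(value + 1) by limma 3.58.1 (R 4.3.3), as 1 fit of 4 group means with a mean-variance trend, two-sided, Benjamini-Hochberg adjusted at 0.05. The trend fit was tested on simulated data. edgeR 4.0.16 and DESeq2 1.42.0 on recovered counts, other scalings, filters, pseudocounts, array weights, a replicate block and leaving out libraries were alternatives, of which scaling without Rn45s and leaving out 4 or 2 libraries together were added after seeing the data. Members and the 55 gene lists were chosen with earlier results of these data known. Named genes were the 10 higher and 10 lower by p, the 5 on each side of the interaction, the 3 on each side with the largest difference without overlap, the 10 most variable, up to 3 by p of each list and 53 fixed genes, of which 49 were tested. Ifi27, Rtp4, Oasl2, Ifih1, Fos and Junb were added after their values were seen. A few genes chosen this way were not described here. Coordinates are from GENCODE (GRCm38), in which 15219 symbols (96.3%) matched. Fam212a was not among them.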

Additional observations from a re-analysis of the deposited data

Results flagged for a closer look

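Among 340 groups of 5 old mice (115 genes and 55 lists, each in the apigenin and the vehicle arm), 36 held 1 mouse far from the other 4 by Dixon's criterion. Chance alone would mark about 1 in 20 groups if they were independent and not chosen by their values. Here some genes were named for their large spread over these same mice. Lists also share genes with the single-gene groups, and some genes move together. The count of 36 therefore cannot be compared with chance. Values are normalized reads, with the other 4 mice of the arm in brackets where they help. Causes were not tested.

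Vehicle 2 stood apart most often among the marked groups, where several Hox genes are counted separately. It was high in Hoxb8 at 128 (0 to 0.98), Hoxb5 at 278 (0 to 4.91), Hoxa5 at 145 (0 to 7.15) and Hoxb6 at 76.7 (0 to 0). It was also high in Lcn2 at 322 (31.4 to 78.3), Hmox1 at 256 (176.5 to 197.7) and Nqo1 at 361 (207 to 250), and low in Gabra2 at 499.6 (814 to 921). Its mean log2 level was low for homeostatic microglia at 9.39 (9.62 to 9.69), glutamatergic synapse genes at 12.72 (12.94 to 12.98) and amyloid and tau genes at 12.25 (12.32 to 12.33), and high for glucocorticoid response genes at 11.07 (10.27 to 10.43).

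Apigenin 3 stood apart in the cerebellum list at a mean log2 level of 7.21 (10.97 to 11.46), in the GABA synapse and receptor list at 11.77 (12.09 to 12.19), in Bdnf at 1209 (902 to 980) and in Gbx2 at 149 (117 to 124). Vehicle 1 was high in Gabra6 at 2655 (2019 to 2156).

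The crossing mice of the immediate early genes were marked in single genes. Apigenin 2 was high in Ier2 at 542 (254 to 327) and Fos at 3354 (1195 to 1558), and vehicle 3 was low in Fos at 1199 (3029 to 3651) and Junb at 2682 (5035 to 5776). Apigenin 2 was also the mouse with Rn45s at 1128462 (65853 to 131725).

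Meg3 was at 88309 in apigenin 5 (12985 to 21392) and 106412 in vehicle 4 (18148 to 33788). Vehicle 4 was also high in Cst7 at 92.9 (43.1 to 51.5), Nfkb1 at 868 (621 to 690) and Dcx at 1112 (477 to 659), and low in the interneuron list at a mean log2 level of 10.54 (10.70 to 10.74). Apigenin 5 was high in Zfp341 at 405 (361 to 366), Creb1 at 2320 (1944 to 2006) and Alb at 776 (15.3 to 99.0). Apigenin 4 was high in Cst7 at 93.6 (47.5 to 59.3), H2-K1 at 2731 (1631 to 1839) and Lcn2 at 365 (57.1 to 137). Vehicle 5 was high in Alb at 914 (0.94 to 166) and low in the blood list at a mean log2 level of 3.74 (5.61 to 6.28).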

How the results depend on the processing

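The interaction gave 0 called genes under every alternative run for it, array weights included. The comparison in old brains gave 0 under every alternative run except array weights, which called 988 genes, with 4381 at an unadjusted p under 0.05. Leaving out 1 library gave 0 to 0 called genes for both comparisons, 234 to 1675 genes at an unadjusted p under 0.05, 84 to 306 genes without overlap and a median log2 difference over all genes of -0.00105 to 0.01909. Groups of fewer mice overlap less often by construction. Without the 2 libraries high in nuclear RNA there were 987 genes at an unadjusted p under 0.05 and 423 without overlap, and without the 4 apart in brain regions 574 and 1749. Whether the numbers pair the mice is not settled here. Same-numbered libraries deviated with correlations of -0.18 to 0.31, and 4 of 10 correlated best with their own number. Differences in brain region and nuclear RNA between libraries also enter these correlations. With the replicate number as a block, 0 genes were called and 306 had an unadjusted p under 0.05.

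For 115 genes under 23 alternatives, 18 of 2633 differences turned direction by more than 1 SE. Leaving out 1 library moved Gabra6 from -2.5 (without apigenin 4) to 0.11 (without apigenin 3) and Pcp2 from -2.08 to 0.21 without the same libraries. Without the 4 libraries apart in brain regions the log2 difference was 0.17 for Gabra6, -1.34 for Gh, -2.38 for Ms4a15, 0.43 for Malat1, 0.23 for Meg3, -0.10 for C1qa, -0.17 for Trem2, -0.031 for B2m, 0.089 for Sirt1, 0.14 for Ahr, -0.089 for Bdnf, -0.068 for Apoe, -0.15 for Hspa5 and -0.024 for Tgfb1. Cd68 was at 0.063 with array weights and Mbp at -0.089 with quantile normalization. The causes were not tested. Old libraries held at least 28171596 reads. The median SE was 0.1 over all genes, 0.46 over the cerebellum list and 1.05 over the brainstem and cord list, and a gene near the minimum of 10, Slc38a8, had an SE of 0.34.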

Other observations

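Other lists held few genes at an unadjusted p under 0.05, and none passed after adjustment in limma. Mural cell genes, of pericytes and smooth muscle, had 2 of 12 above 0 and a median log2 difference of -0.18, which ranged from -0.32 (without apigenin 5) to -0.03 (without vehicle 4) when 1 library was left out and was -0.09 without the 4 libraries apart in brain regions. Pdgfrb, the pericyte growth factor receptor, was at -0.23 ± 0.12 (-0.12 without the 4 libraries) and the potassium channel subunit Abcc9 at -0.29 ± 0.18. Genes of mTOR, AMPK and insulin signalling had 6 of 26 above 0 and a median of -0.06, or 0.03 with 14 of 26 above 0 without the 4 libraries apart in brain regions. Prkab1, an AMPK subunit, was at 512 to 592 normalized reads on apigenin and 529 to 769 on vehicle (-0.23 ± 0.09, or -0.11 without them). Among 25 autophagy and lysosome genes, Atg5, of the conjugation machinery of autophagosomes, was at 699 to 853 against 575 to 712 (0.22 ± 0.09, or 0.12 without the 4 libraries), and Atg9a, an autophagosome membrane protein, had a difference of -0.10 ± 0.05.

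Glucocorticoid response genes had 14 of 18 above 0 and a median of 0.04, which was 0.20 without vehicle 2 and 0.23 without the 4 libraries apart in brain regions. Vehicle 2, one of those 4, had the highest mean of that list in its arm. Circadian clock genes had 11 of 20 above 0 and a median of 0.00, or 0.14 with 16 of 20 above 0 without the 4 libraries. Bhlhe41 was at 0.19 ± 0.08 (0.28 without them) and Dbp at 0.28 ± 0.14. Mki67, a marker of dividing cells, was low in all mice, at 47.0 to 74.8 on apigenin and 29.4 to 57.2 on vehicle (0.42 ± 0.19).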
